A study of Mus musculus with 6 samples.

Results

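The 44 genes described here encode assembly factors of the respiratory chain, proteins that build its complexes in mitochondria but are not part of the finished enzymes. They were chosen as a list by name, and all 44 were found among the 54532 genes of the count table by gene name. Of these, 42 had enough counts to be tested, in a comparison of 13706 tested genes. Poly-A selected RNA was sequenced from mouse liver at 5 weeks of age, in 3 libraries of control animals (labelled Ctrl) and 3 of animals lacking Fam210a in hepatocytes (labelled Fam210aHKO). The library names carry the letters WT for the controls and KO for Fam210aHKO. Beyond these letters the labels give no control genotype. They name no Cre driver, strain or sex, and they do not say that each library came from its own animal. The p-values therefore measure the spread between libraries, which may be technical. The genotype field of Fam210aHKO replicates 2 and 3 reads Fam211a and Fam212a, and these libraries were grouped by their titles.

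The respiratory chain consists of complexes I to IV, which pass electrons from nutrients to oxygen while complexes I, III and IV pump protons, and it feeds the ATP synthase, which uses the proton gradient to make ATP. Each complex is put together from many subunits together with haem, copper, flavin or iron-sulfur groups, and most steps need dedicated helper proteins encoded in the nucleus. Hepatocytes are rich in mitochondria, and inherited loss of several of these helpers, among them BCS1L, SCO1 and LRPPRC, causes mitochondrial disease that can involve the liver. FAM210A is a mitochondrial protein linked to translation inside the organelle.

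Library totals were 12541465 to 19655235 counts, of which the 44 genes took 0.0827% to 0.131%. Levels are given as counts per 1e6 library counts (CPM) after TMM scaling, a scaling that sets the bulk of genes equal between libraries, and differences as log2 fold changes of Fam210aHKO against Ctrl. A gene was called at an adjusted p below 0.05 in edgeR's quasi-likelihood test over all tested genes. Fam210a was at 119, 136 and 162 CPM in Ctrl and at 31.7, 28.6 and 44.2 CPM in Fam210aHKO, so all 3 libraries labelled Fam210aHKO were below all 3 Ctrl libraries (log2 fold change -1.99, SE 0.195, adjusted p = 4.34e-05). The marker lists were set for this work with earlier results of these data known. Of 10 hepatocyte markers 8 were called lower, where 13.4% of all tested genes were called lower and 13.9% higher. The 10 summed to 150487 to 233420 CPM in Ctrl and 86602 to 110080 CPM in Fam210aHKO. All 6 cell cycle genes were called higher (4.35 to 12.9 CPM summed in Ctrl, 78.6 to 132 CPM in Fam210aHKO). Called higher were also 4 of 12 macrophage markers (521 to 656 against 434 to 827 CPM summed), 2 of 7 stellate markers (130 to 151 against 153 to 331 CPM) and 2 of 4 tested cholangiocyte markers of 6 listed (39.3 to 58.5 against 135 to 275 CPM), while 2 of 7 endothelial markers were called lower (284 to 375 against 183 to 308 CPM). Spp1 alone made up most of the cholangiocyte sum in every library (42.4 ± 8.75 CPM in Ctrl and 200 ± 66.2 CPM in Fam210aHKO). Epcam was the other cholangiocyte marker called, while Krt19 and Sox9 had overlapping groups and were not called. None of 7 lymphocyte markers, 3 of them tested, was called. All 7 were below 1 CPM (3.13 to 3.97 against 2.82 to 4.17 CPM summed). With library totals, 5 hepatocyte and no endothelial markers were called lower, and 6 cell cycle, 7 macrophage, 5 stellate and 3 cholangiocyte markers higher. Over all tested genes 6.30% were then called lower and 42.5% higher. None of the 55 markers was at 0 in all libraries, and their part in the values below was not tested. In bulk liver, fewer cells of a type and less RNA per cell cannot be told apart.

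Most assembly factor mRNAs did not pass the test in either direction. Of the 42 tested members, Cox10 was called higher and 5 were called lower, namely Coa6, Ndufaf3, Sdhaf4, Tmem126b and Surf1. The 1 higher call was 2.38% of the members, where 13.9% of all tested genes were called higher, and the 5 lower calls were 11.9%, where 13.4% of all tested genes were called lower. The share of lower calls was thus near that of all genes and the share of higher calls was below it. At an unadjusted p below 0.05 there were 7 members (16.7%), against 38.8% of all tested genes. The median log2 fold change of the members was -0.04, against 0.017 over all tested genes. Below 0 lay 28 members and above it 14, where 7048 of all 13706 tested genes lay above 0. This split depended on the libraries: 22 of the 42 members lay above 0 without Fam210aHKO replicate 3, and 9 to 17 without any other library. Of the 42 members, 85.7% were within 0.5 of 0 on the log2 scale, against 61.3% of all tested genes.

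The 36 members that were not called had log2 fold changes from -0.35 to 0.37. For all 36 the 95% interval of the change lay within -1 and 1, and for 13 it lay within -0.5 and 0.5. Groups did not overlap for 3 members that were higher in Fam210aHKO (Cox10, Nubpl and Lrpprc) and for 7 that were lower (the 5 called ones, Ndufaf1 and Uqcc3). Over all tested genes, 22.0% were higher and 20.7% lower without overlap.

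The signs moved with the scaling. The mean TMM factor was 0.855 for Ctrl and 1.17 for Fam210aHKO libraries, and scaling by library totals alone moved the median of all tested genes up by 0.45. The members moved with it, to a median of 0.41, with 37 of 42 above 0. Called higher were then 10 members (Atpaf1, Coa3, Coa7, Cox10, Cox15, Lrpprc, Ndufaf4, Nubpl, Tmem70 and Uqcc2), or 23.8%, where 42.5% of all tested genes were, and Coa6 was called lower, where 6.30% of all tested genes were. Cox10 and Coa6 were therefore called in the same direction under TMM, median of ratios, upper-quartile and library-total scaling, while the other 4 lower members kept a negative sign but lost the call with library totals.

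**Figure D1:**
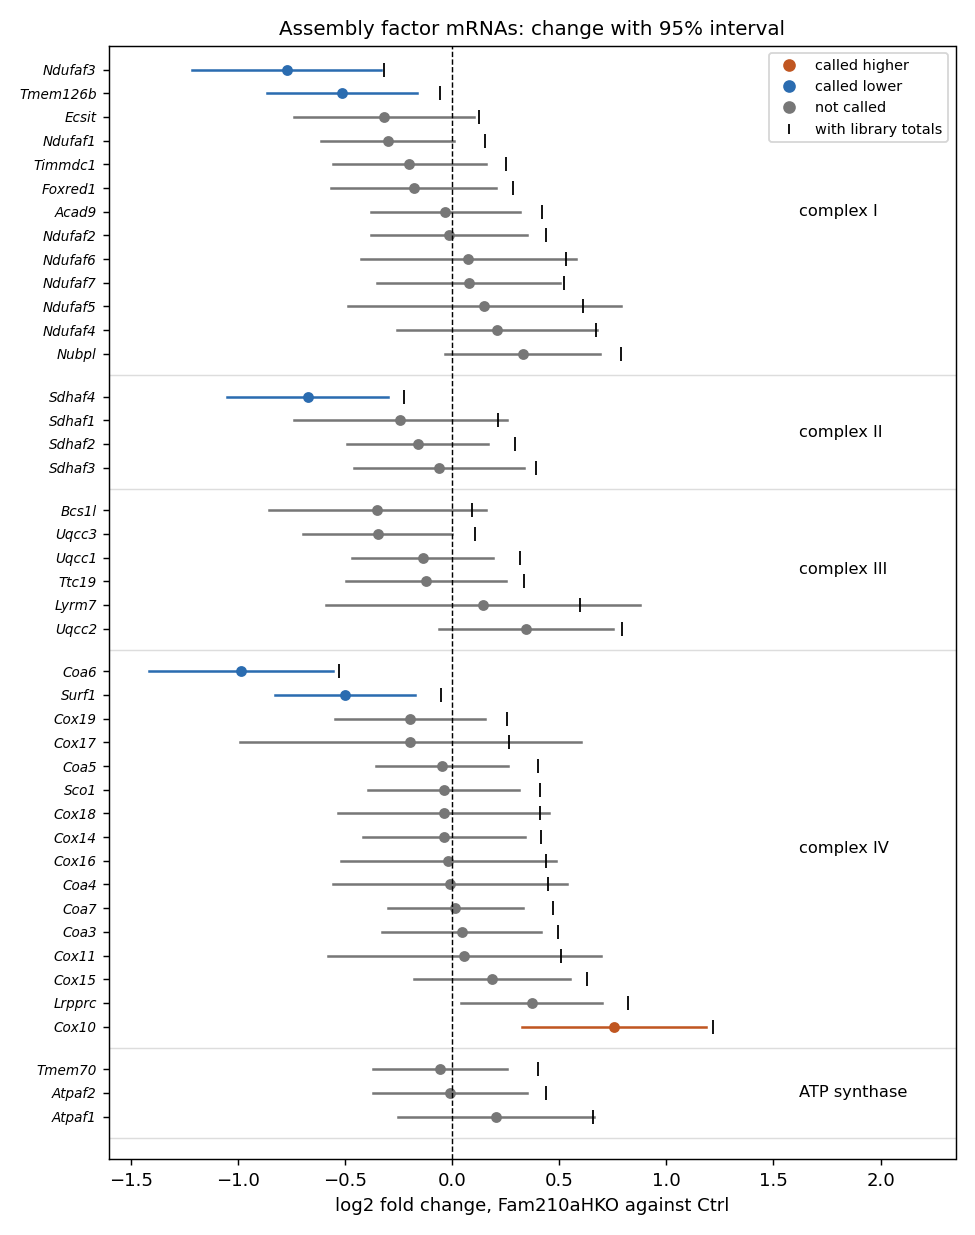
Log2 fold change of Fam210aHKO against Ctrl (x axis) for the 42 tested members, grouped by the complex they build, with 95% intervals and 3 libraries a group. Points mark the TMM-scaled estimate and black ticks the estimate with library totals, which lies to the right of the point for every member shown. Cox10 at 0.76 and Coa6 at -0.99 are the ends of the range.

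Cox10 (chr11:63962627-64079468, minus strand, mm10) was the member called higher. It encodes haem A farnesyltransferase, the enzyme that makes haem O on the way to the haem A of complex IV. Its level was 12.3, 16.8 and 13.3 CPM in Ctrl and 22.2, 29.8 and 19.9 CPM in Fam210aHKO, so the lowest Fam210aHKO library was above the highest Ctrl library. The mean rose from 14.2 ± 2.345 to 24.0 ± 5.17 CPM (SD, n = 3), or 169% of Ctrl and 0.76 on the log2 scale (SE 0.196, adjusted p = 0.0142). The call was lost without Ctrl replicate 1 (0.66, adjusted p = 0.0634), Ctrl replicate 3 (0.69, adjusted p = 0.0648) or Fam210aHKO replicate 2 (0.58, adjusted p = 0.0691).

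Cox15 encodes haem A synthase, which acts directly after Cox10. It was at 33.2, 25.4 and 38.1 CPM in Ctrl and at 37.8, 37.4 and 35.0 CPM in Fam210aHKO, with overlapping groups. Its log2 fold change was 0.19 (95% interval -0.18 to 0.55, adjusted p = 0.444), and with library totals it was called higher (0.63, adjusted p = 0.0178). The ratio of Cox10 to Cox15 counts, which does not depend on scaling, was 0.372, 0.661 and 0.349 in Ctrl and 0.587, 0.797 and 0.569 in Fam210aHKO. The ratios overlapped, and Ctrl replicate 2 had the lowest Cox15 and the highest Cox10 of its group. This ratio was not planned in advance, and the difference between these haem genes was not tested.

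Coa6 (chr8:126422515-126425433, plus strand) showed the strongest fall of the list. The protein is an intermembrane space thiol reductase that helps place copper in the COX2 subunit of complex IV. Coa6 was at 40.2, 39.9 and 28.0 CPM in Ctrl and at 20.9, 19.1 and 14.5 CPM in Fam210aHKO. The groups stood apart although Ctrl replicate 3 was well below the other Ctrl libraries. The mean fell from 36.0 ± 6.96 to 18.2 ± 3.32 CPM, to 50.5% of Ctrl and -0.99 on the log2 scale (SE 0.195, adjusted p = 0.00333). The call held with each library left out in turn, and with library totals the estimate was -0.53 (adjusted p = 0.0444). Of the 747 bases of Coa6 exons, 105 overlap those of Tarbp1 on the opposite strand, and no source states whether counting used the strand. Tarbp1 was at 5.61 ± 1.09 and 6.97 ± 0.705 CPM and was not called (adjusted p = 0.323).

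Per kilobase of gene length, Coa6 was the most abundant member in Ctrl, at 48.2 TMM-scaled CPM per kilobase, ahead of Cox14 (39.6) and Coa3 (37.2). In Fam210aHKO it was the 4th, at 24.3 per kilobase, behind Cox14, Coa3 and Tmem70. These ranks follow group means: the Ctrl libraries of Coa6 and Cox14 overlapped, as did the Fam210aHKO libraries of Coa6 and Uqcc2. Counts of Coa6 relative to Cox19, another copper-pathway gene, were 1.26, 1.49 and 1.22 in Ctrl and 0.860, 0.840 and 0.602 in Fam210aHKO, a pair chosen after the values were seen. This ratio is free of scaling and the groups did not overlap. Coa6 was picked as a called member, so the ratio is no separate support for its call.

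The other genes of copper delivery were not called. Sco1, a copper chaperone of the COX2 site, was at 12.8, 11.2 and 12.7 CPM in Ctrl and at 12.4, 11.9 and 11.4 CPM in Fam210aHKO. These libraries overlapped almost fully (log2 fold change -0.04, 95% interval -0.39 to 0.31, adjusted p = 0.883), and the sign was positive with library totals (0.41). Cox19 went from 27.2 ± 4.48 to 23.7 ± 0.818 CPM (-0.20, adjusted p = 0.394). Cox11, which serves the copper site of COX1, was at 5.34 ± 1.25 and 5.63 ± 1.85 CPM (0.06, adjusted p = 0.908), and 48.3% of its exon bases overlap Tom1l1 on the opposite strand. Cox17, the copper donor to these chaperones, had 21 to 52 counts per library and the widest interval of all members (-0.20, 95% interval -0.99 to 0.60). Sco2, the relative of Sco1, had 0 counts in all 6 libraries, where 3 counts would be 0.132 to 0.261 CPM. Of its exon bases 91.8% are shared with other genes, 856 of them with Tymp on the same strand, which had 6616 counts. No source states how reads in shared bases were counted, so a count of 0 for Sco2 does not show that the gene was silent.

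**Figure D2:**
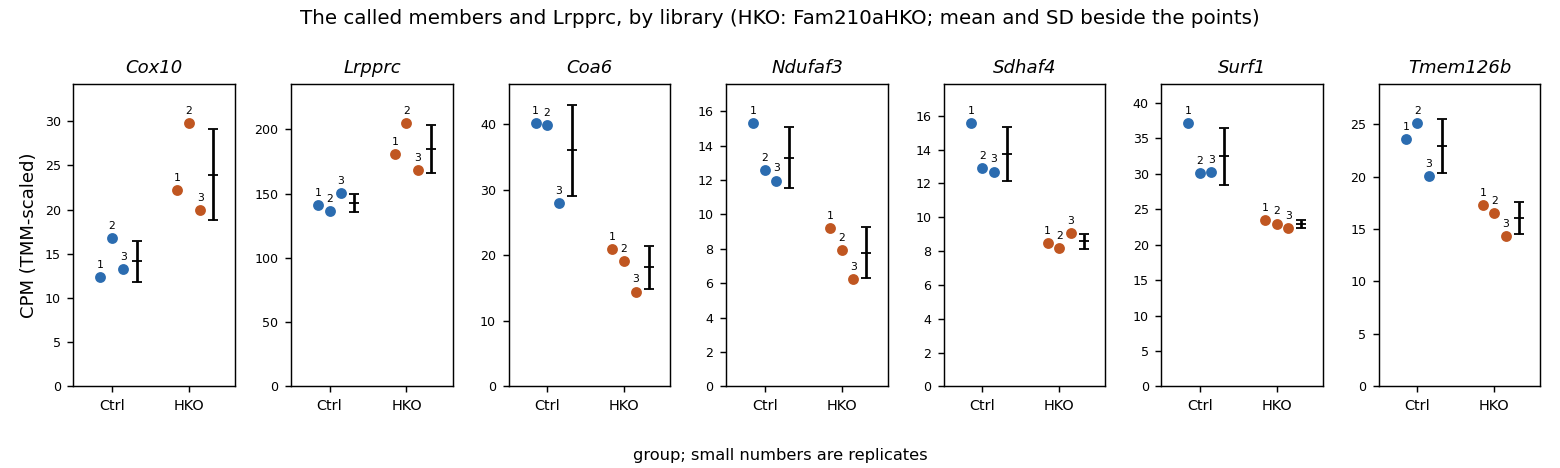
TMM-scaled CPM (y axis, from 0 in each panel) of the 6 called members and Lrpprc in each library, with replicate numbers at the points and the mean with SD beside them. In every panel the Ctrl and Fam210aHKO points do not overlap, with Cox10 and Lrpprc higher and the other 5 lower in Fam210aHKO. The drop of Coa6 is the largest on the fold scale.

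Among the factors that act on COX1, the catalytic subunit of complex IV, Surf1 (chr2:26913381-26916530, minus strand) was called lower. The protein takes part in haem A insertion into COX1. Surf1 was at 37.1, 30.1 and 30.2 CPM in Ctrl and at 23.5, 23.0 and 22.3 CPM in Fam210aHKO, the tightest Fam210aHKO values of any member. The mean fell from 32.5 ± 4.03 to 22.9 ± 0.582 CPM, which is -0.50 on the log2 scale (SE 0.149, adjusted p = 0.0274). The call was lost with no filter on low counts (adjusted p = 0.0653), with library totals (-0.05, adjusted p = 0.815), and without Ctrl replicate 1 (adjusted p = 0.0904) or any one of Fam210aHKO replicates 1, 2 and 3 (adjusted p = 0.0596, 0.0871 and 0.0616). Surf1 shares 137 exon bases, 7.8%, with Surf2 on the opposite strand, and Surf2 had a log2 fold change of the other sign, 0.47, that was not called (adjusted p = 0.139).

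Lrpprc binds mitochondrial mRNAs and keeps them stable, and it had by far the most counts of the list. It was at 141, 136 and 151 CPM in Ctrl and at 181, 205 and 168 CPM in Fam210aHKO, without overlap. The log2 fold change was 0.37 (SE 0.150, adjusted p = 0.0899), short of the threshold. It passed the threshold with the replicate number as a block (0.37, adjusted p = 0.0472) and also with library totals (0.82, adjusted p = 0.00220). The blocked fit called 2 members higher and 5 lower, against 17.8% and 17.9% of all tested genes. Slirp, its RNA-binding partner, was at 1.70 and 1.54 CPM and was not called.

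Cox14 and Coa3 hold newly made COX1 in an assembly intermediate. Cox14 was at 33.7, 27.9 and 24.1 CPM in Ctrl and at 29.7, 30.1 and 23.7 CPM in Fam210aHKO (log2 fold change -0.04, 95% interval -0.41 to 0.34, adjusted p = 0.897, and 0.41 with library totals). Coa3 was at 33.0 ± 5.17 and 34.0 ± 4.90 CPM (0.04, adjusted p = 0.874). Neither separated the groups. The ratio of Surf1 to Cox14 counts was 1.10, 1.08 and 1.25 in Ctrl and 0.791, 0.763 and 0.941 in Fam210aHKO, without overlap. The pair was chosen after the values were seen, with Surf1 picked as a called member, so it is no separate support for the call.

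The factors for COX2 and the remaining complex IV factors showed no call. None of these had an unadjusted p below 0.05 in edgeR or in DESeq2. For all tested genes the shares were 13.9% called higher, 13.4% called lower and 38.8% with such a p in edgeR. Cox18, which moves the tail of COX2 across the inner membrane, was at 9.48, 6.66 and 7.26 CPM in Ctrl and at 9.09, 7.499 and 6.14 CPM in Fam210aHKO (log2 fold change -0.04, 95% interval -0.53 to 0.45, adjusted p = 0.918, and 0.41 with library totals). Cox16, another COX2 factor, was at 5.20 ± 0.667 and 5.15 ± 0.795 CPM, and 56.8% of its exon bases overlap Gm20498 on the same strand. Cox20, a chaperone of COX2, had 6 to 9 counts per library and was not tested. Its model shares 91.1% of its bases with other genes, 804 of them with Hnrnpu on the opposite strand, so its level is uncertain. Coa5 was at 114, 111 and 125 CPM in Ctrl and at 109, 123 and 107 CPM in Fam210aHKO (log2 fold change -0.05, 95% interval -0.36 to 0.26, adjusted p = 0.836, and 0.40 with library totals). Coa5 had the smallest standard error of the list, 0.140. Coa4 (5.59 ± 0.715 and 5.58 ± 1.51 CPM) and Coa7 (20.98 ± 1.05 and 21.2 ± 0.935 CPM) had overlapping groups as well.

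Complex I is assembled from modules, and 13 members serve it. Of these, 2 were called lower (15.4%, near the 13.4% of all tested genes) and none higher (13.9% of all tested genes), with a median log2 fold change of -0.03. Ndufaf3 (chr9:108565537-108567434, minus strand) encodes an early factor that works with Ndufaf4 on the module that reduces ubiquinone. It was at 15.3, 12.6 and 11.96 CPM in Ctrl and at 9.18, 7.91 and 6.23 CPM in Fam210aHKO, without overlap. The mean fell from 13.3 ± 1.78 to 7.78 ± 1.48 CPM, or 58.5% of Ctrl and -0.77 on the log2 scale (SE 0.201, adjusted p = 0.0146). The call was lost without Ctrl replicate 1 (-0.67, adjusted p = 0.0593) and with library totals (-0.32, adjusted p = 0.228). Ndufaf3 shares 48 exon bases with Impdh2 on the opposite strand, and Impdh2 was called higher (0.70, adjusted p = 0.0369). Ndufaf4, the partner of Ndufaf3, was at 41.0, 55.6 and 35.6 CPM in Ctrl and at 51.5, 63.4 and 37.9 CPM in Fam210aHKO, with overlapping groups (0.21, 95% interval -0.26 to 0.67, adjusted p = 0.511). The members of this pair therefore had estimates of opposite sign, of which the Ndufaf3 estimate was called, and their difference was not tested.

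Tmem126b, Ndufaf1, Acad9, Ecsit and Timmdc1 encode the complex that assembles the membrane arm of complex I. Tmem126b (chr7:90467438-90476001, minus strand) was at 23.6, 25.1 and 20.03 CPM in Ctrl and at 17.3, 16.5 and 14.3 CPM in Fam210aHKO, without overlap. It fell from 22.9 ± 2.59 to 16.0 ± 1.54 CPM, which is -0.51 on the log2 scale (SE 0.160, adjusted p = 0.0342). The call was lost with no filter (adjusted p = 0.0731), with library totals (-0.06, adjusted p = 0.799), and without Ctrl replicate 1 or 2 or Fam210aHKO replicate 2 or 3 (adjusted p = 0.0803, 0.0817, 0.0858 and 0.0950). Ndufaf1 was at 31.7, 31.3 and 30.7 CPM in Ctrl, the smallest spread of any member in that group, and at 27.2, 26.0 and 22.9 CPM in Fam210aHKO. Its groups did not overlap, yet it was not called (-0.30, 95% interval -0.61 to 0.01, adjusted p = 0.141), and its sign was positive with library totals (0.15). Acad9 was at 26.7, 27.4 and 31.4 CPM in Ctrl and at 29.0, 31.2 and 23.6 CPM in Fam210aHKO (-0.03, adjusted p = 0.906, and 0.42 with library totals), so the groups overlapped. Its transcript holds repeat-like stretches shared with other genes, for example 460 bases at 95.2% identity with Vps8 (1300 counts), so its reads are partly uncertain. Ecsit (31.3 ± 7.65 to 25.1 ± 3.14 CPM) and Timmdc1 (23.8 ± 1.67 to 20.7 ± 3.13 CPM) had negative estimates that were not called. All 5 genes of this complex thus had estimates below 0 under TMM scaling, as did 28 of all 42 tested members. Only Tmem126b was called, and with library totals only its estimate stayed below 0.

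The other complex I factors were not called. Nubpl, which delivers iron-sulfur clusters, was at 10.2, 11.3 and 9.81 CPM in Ctrl and at 13.8, 13.5 and 12.1 CPM in Fam210aHKO. Its groups did not overlap (log2 fold change 0.33, 95% interval -0.03 to 0.69, adjusted p = 0.163), and with library totals it was called higher (0.79, adjusted p = 0.00317). Ndufaf7, a methyltransferase acting on a complex I subunit, was at 12.55 ± 1.78 and 13.3 ± 2.55 CPM. Ndufaf5, which hydroxylates another subunit, was at 3.78 ± 1.01 and 4.16 ± 1.04 CPM. Their log2 fold changes, 0.08 and 0.15, were well within the spread. Ndufaf6 was at 10.7 ± 2.24 and 11.3 ± 2.81 CPM, the flavoprotein gene Foxred1 at 34.1 ± 5.82 and 30.1 ± 4.61 CPM, and the late factor Ndufaf2 at 11.9 ± 0.387 and 11.8 ± 1.29 CPM. Of the exon bases of Ndufaf2, 65.6% overlap an antisense gene that had 0 counts.

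Complex II, succinate dehydrogenase, has 4 members in the list, and Sdhaf4 (chr1:23995939-24005656, minus strand) was called lower. The protein binds the flavin-carrying SDHA subunit before it joins SDHB. Sdhaf4 was at 15.6, 12.9 and 12.7 CPM in Ctrl and at 8.47, 8.19 and 9.08 CPM in Fam210aHKO, far apart. The mean fell from 13.7 ± 1.596 to 8.58 ± 0.457 CPM, or 62.5% of Ctrl and -0.67 on the log2 scale (SE 0.171, adjusted p = 0.0130). The call was lost without Ctrl replicate 1 (-0.59, adjusted p = 0.0520), without Fam210aHKO replicate 2 (-0.64, adjusted p = 0.0535) and with library totals (-0.22, adjusted p = 0.330). Sdhaf2, which promotes the attachment of flavin to SDHA, was at 27.0 ± 1.04 and 24.1 ± 2.82 CPM (-0.16, adjusted p = 0.467). The ratio of Sdhaf4 to Sdhaf2 counts was 0.559, 0.5 and 0.466 in Ctrl and 0.317, 0.333 and 0.430 in Fam210aHKO, without overlap. This pair was also chosen after the values were seen, with Sdhaf4 picked as a called member, and is no separate support for the call. Sdhaf1 (5.23 ± 0.397 and 4.41 ± 0.660 CPM) and Sdhaf3 (8.50 ± 0.378 and 8.155 ± 0.690 CPM), which protect the iron-sulfur subunit SDHB, were not called. Of the exon bases of Sdhaf1, 69.6% overlap an antisense gene with 0 counts.

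Complex III had 6 members and no call, where 13.9% of all tested genes were called higher and 13.4% lower. None had an unadjusted p below 0.05 in edgeR or DESeq2, where 38.8% of all tested genes did in edgeR. With the replicate block 1 of the 6 had such a p. Uqcc3, needed for the cytochrome b subunit, was at 25.6, 23.7 and 19.5 CPM in Ctrl and at 18.8, 18.1 and 17.1 CPM in Fam210aHKO. Its groups just failed to overlap (log2 fold change -0.35, 95% interval -0.69 to 0.00086, adjusted p = 0.130, and 0.11 with library totals). Bcs1l, the ATPase that inserts the Rieske iron-sulfur protein, was at 10.8, 7.06 and 11.4 CPM in Ctrl and at 8.56, 8.26 and 6.19 CPM in Fam210aHKO. Ctrl replicate 2 lay within the Fam210aHKO range, and the estimate of -0.35 was not called (95% interval -0.85 to 0.16, adjusted p = 0.293, and 0.09 with library totals). Lyrm7, which holds the Rieske protein before Bcs1l acts, was at 2.52 ± 0.216 and 2.83 ± 1.21 CPM, with the largest relative spread of any member in Fam210aHKO (a coefficient of variation of 43.0%). Uqcc1 was at 39.2 ± 2.12 and 35.7 ± 5.14 CPM, and its partner Uqcc2 at 15.8 ± 1.396 and 20.1 ± 4.17 CPM (0.34, adjusted p = 0.193). Ttc19, which clears fragments of the Rieske protein, was at 23.3 ± 2.66 and 21.4 ± 3.33 CPM.

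The 3 ATP synthase factors were not called, and none had an unadjusted p below 0.05 in edgeR or DESeq2. Among all tested genes 13.9% were called higher and 13.4% lower, and 38.8% had such a p in edgeR. Tmem70, which supports formation of the membrane ring, was at 52.1, 57.2 and 49.3 CPM in Ctrl and at 51.4, 56.1 and 44.8 CPM in Fam210aHKO. The groups overlapped (log2 fold change -0.06, 95% interval -0.37 to 0.26, adjusted p = 0.802), and with library totals it was called higher (0.40, adjusted p = 0.0462). Atpaf1, a chaperone of the beta subunit, was at 8.96, 9.34 and 11.1 CPM in Ctrl and at 10.6, 14.4 and 9.08 CPM in Fam210aHKO (0.20, 95% interval -0.25 to 0.66, adjusted p = 0.508). Its transcript shares 843 identical bases with Gm14117, which had 657 counts, so part of its reads is uncertain. Atpaf2, a chaperone of the alpha subunit, was at 18.6 ± 1.52 and 18.5 ± 2.58 CPM.

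**Figure D3:**
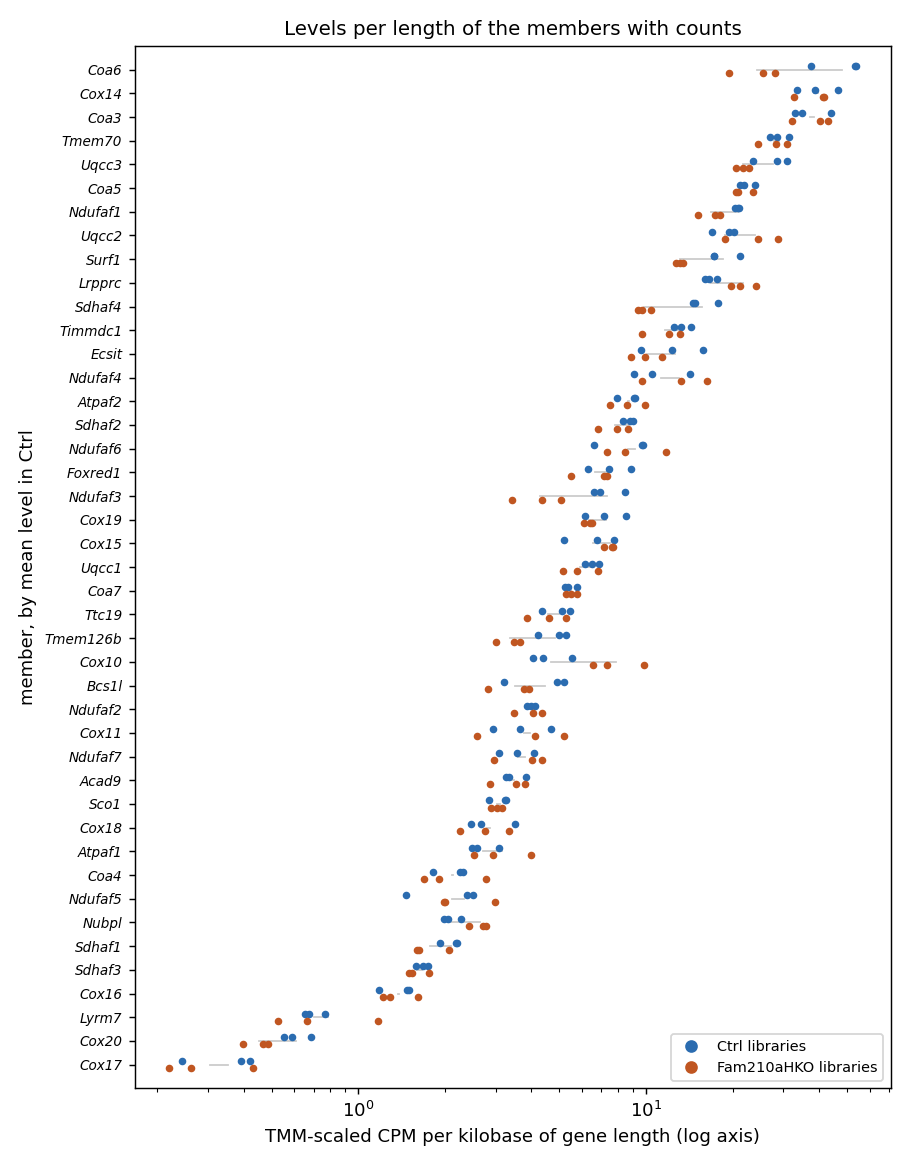
TMM-scaled CPM per kilobase of gene length (log x axis) of the 43 members with counts, ordered by the Ctrl mean. Each point is 1 library, and grey lines join the means of Ctrl and Fam210aHKO. Coa6 falls from the top of the order, and Cox10 moves from rank 26 to rank 17.

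Levels differed widely among the members. Per kilobase, the median over all members, with Sco2 included, was 5.97 TMM-scaled CPM per kilobase in Ctrl. Sco2 had no counts, and among the members with counts the range ran from 48.2 for Coa6 to 0.353 for Cox17. Some neighbours in this order did not differ beyond their spread: the Ctrl libraries of Cox14 and Coa3 overlapped, as did those of Uqcc3 (27.6) and Tmem70 (29.0). Not all neighbours were compared. Levels per kilobase rest on the gene length in the table, which for Cox17 is a single block of 5773 bases that spans the gene. Replicates agreed within a median coefficient of variation of 12.02% in Ctrl and 14.4% in Fam210aHKO for the members, against 16.8% and 15.3% for all tested genes.

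Fam210aHKO replicate 3 had the lowest level of its group for 38 of the 42 tested members, or 90.5%, where this library was the lowest for 36.3% of all tested genes. It was the highest of its group for 1 member. The same library had the highest sum of its group for all 7 marker lists: hepatocyte (110080 CPM), macrophage (827 CPM), stellate (331 CPM), endothelial (308 CPM), cholangiocyte (275 CPM), cell cycle (132 CPM) and lymphocyte (4.17 CPM). Most of the hepatocyte sum in this library was Alb (86553 CPM), and most of the cholangiocyte sum was Spp1 (256 CPM). Among the hepatocyte markers, Tat was lowest of its group in this library (1529 CPM, against 2266 and 2415 CPM). Cps1 and Asgr1 were in the middle, and the remaining hepatocyte markers were highest in it. The part of the marker lists in the low member levels was not tested. Among the controls, Ctrl replicate 1 was the highest for 19 members (45.2%, against 33.5% of all tested genes) and Ctrl replicate 3 the lowest for 21, against 30.7% of all tested genes. Without Fam210aHKO replicate 3 the median log2 fold change of the members was 0.013, Cox10 was still called higher, and 3 members were called lower in place of 5, since Surf1 and Tmem126b were lost. Without Ctrl replicate 1 only Coa6 remained called. How many of all tested genes were called without either library is not given here.

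**Figure D4:**
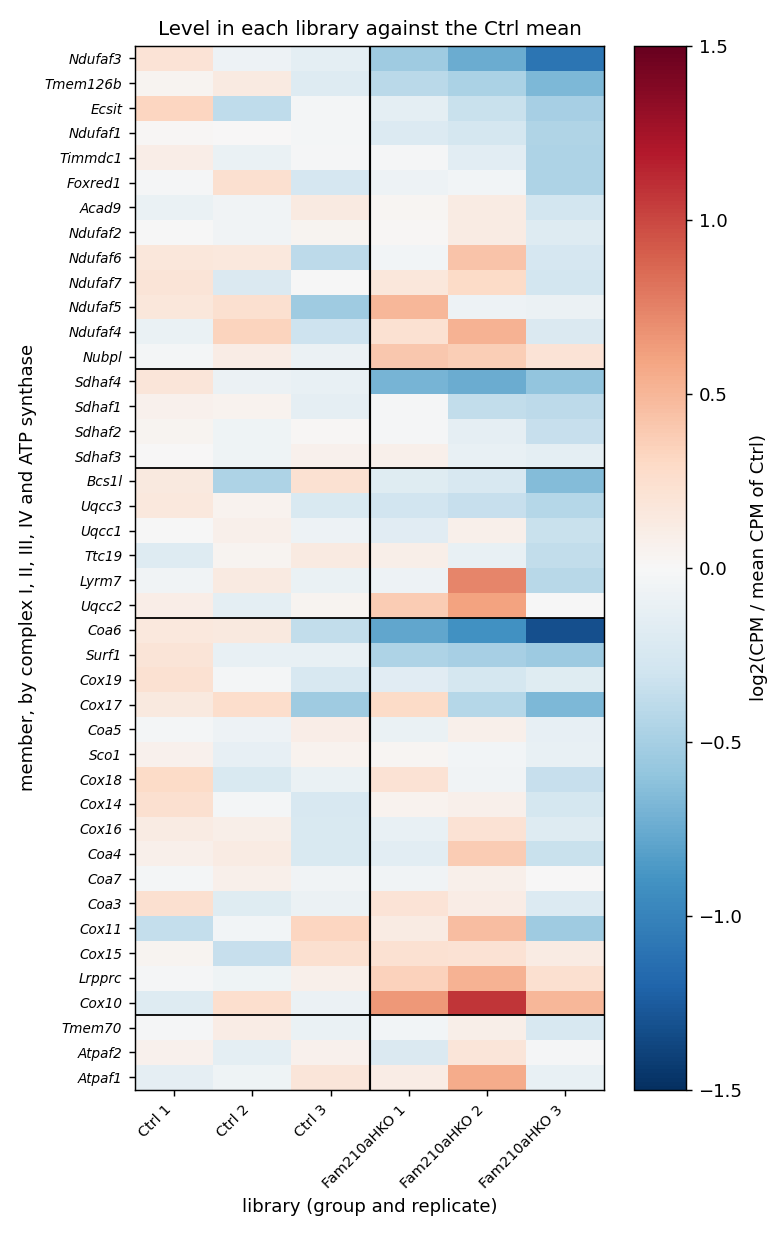
Level of the 42 tested members in each library as log2 of the ratio to the Ctrl mean (colour scale, red higher and blue lower), grouped by complex. The column of Fam210aHKO replicate 3 is the bluest of its group, being lowest for 38 of 42 members, and the blue rows across all 3 Fam210aHKO columns include Coa6, Ndufaf3 and Sdhaf4.

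The nuclear genes for the finished subunits gave a lower median than their assembly factors. Of 76 subunit genes tested, 20 were called lower and 1 higher (26.3% and 1.32%), against 13.4% and 13.9% of all tested genes. Their median log2 fold change was -0.35, against -0.04 for the members. Of the lower ones, Atp5me (Atp5k in the table) went from 53.4 ± 9.81 to 27.7 ± 3.18 CPM (-0.95, adjusted p = 0.0020) and Ndufa3 from 99.6 ± 19.5 to 56.4 ± 3.78 CPM (-0.82, adjusted p = 0.0040). The higher one was Atp5if1 (Atpif1 in the table), an inhibitor of ATP synthase that the list counts with the subunits. It was at 10.6 ± 2.74 and 17.9 ± 1.57 CPM (0.76, adjusted p = 0.0172). With the replicate block 37 subunit genes (48.7%) were called lower, against 17.9% of all tested genes. With library totals 1 (1.32%) was called lower and 4 (5.26%) higher, at a median of 0.11, against 6.30% and 42.5% of all tested genes.

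The median of the subunits was below that of the factors for each complex: -0.30 and -0.03 (complex I), -0.45 and -0.20 (complex II), -0.37 and -0.13 (complex III), -0.46 and -0.03 (complex IV), and -0.26 and -0.01 (ATP synthase). The geometric mean level of the 42 factors as a percentage of that of the 76 subunits, which is free of scaling, was 13.8%, 13.8% and 16.9% in Ctrl and 17.6%, 17.0% and 17.2% in Fam210aHKO. The groups stood just apart, with Ctrl replicate 3 close to the Fam210aHKO libraries. For complex IV the values were 13.4%, 13.1% and 17.1% in Ctrl and 19.2%, 18.1% and 18.4% in Fam210aHKO, and for complex I 22.5%, 23.5% and 26.5% and then 28.2%, 26.7% and 26.9%. Both again separated, while the ratios for complexes II and III and ATP synthase overlapped. These ratios are descriptions of 3 libraries a group and were not tested. They weigh every listed gene equally, including the inhibitor gene Atp5if1 and the complex IV gene Cox7a1. Cox7a1 had a mean of only 0.796 CPM in Ctrl and 0.427 CPM in Fam210aHKO.

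**Figure D5:**
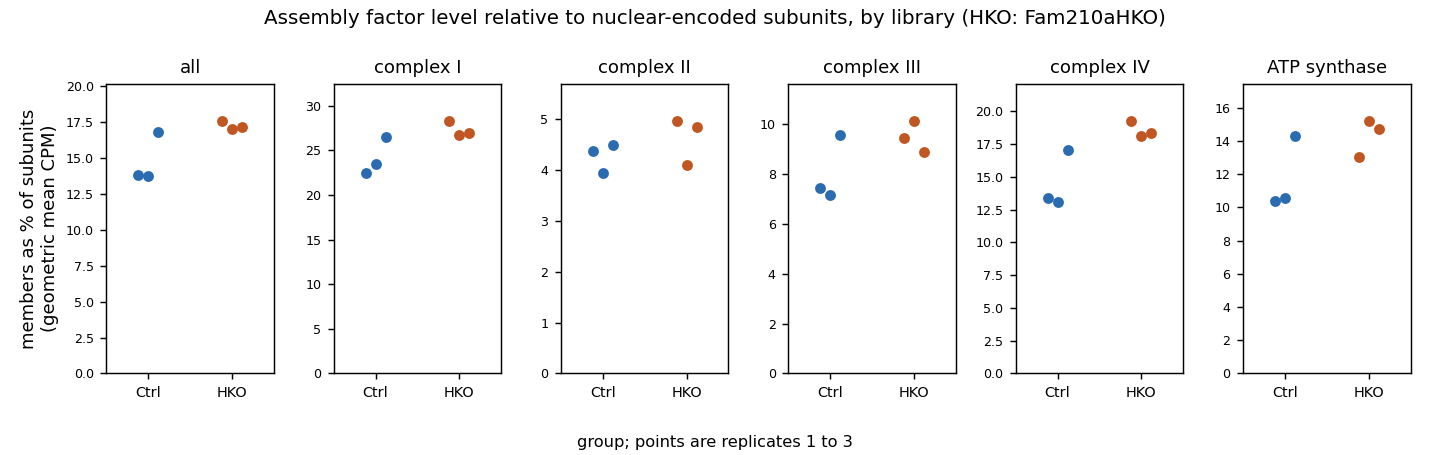
Geometric mean CPM of the assembly factors as a percentage of that of the nuclear-encoded subunits of the same complex (y axis from 0), with 1 point per library in the order of replicates 1 to 3. Fam210aHKO lies above Ctrl without overlap for all factors together, complex I and complex IV, and Ctrl replicate 3 is the highest control in every panel.

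Related gene lists gave few calls. Of a further 26 assembly genes 24 were matched and 22 tested, with a median of -0.13. In edgeR 0 were called higher and 1 (4.55%) lower, against 13.9% and 13.4% of all tested genes. DESeq2 also called 0 higher and 1 lower, and limma-voom called none. Of the 22 genes, 4 had an unadjusted p below 0.05 in edgeR, where 38.8% of all tested genes did. The lower one was Pet100, a complex IV factor, at 10.4 ± 3.24 and 6.31 ± 0.670 CPM (log2 fold change -0.72, adjusted p = 0.0454). With the replicate block 1 was called higher and 4 lower (18.2%, against 17.9% of all tested genes), and with library totals 7 higher (31.8%, against 42.5%). Of 11 genes of iron-sulfur cluster synthesis, which several of these factors depend on, 1 (9.09%) was called higher and 0 lower. Over all tested genes 13.9% were called higher and 13.4% lower. The called gene was Iba57, from 12.45 ± 2.26 to 19.1 ± 1.56 CPM (0.61, adjusted p = 0.0236), and the median of the list was 0.07. DESeq2 and limma-voom gave the same counts. In edgeR 3 had an unadjusted p below 0.05, where 38.8% of all tested genes did. The block added 2 lower calls (18.2%), and library totals gave 5 higher (45.5%). The block and library-total shares were near the 17.9% and 42.5% of all tested genes.

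The sequences just before the start sites of the called members are shown because these members were called, in both directions, and the motif search below refers to them. Each is the 150 bases before the RefSeq start site on the gene's own strand, in GRCm38.p6. Capitals mark an ETS motif (CCGGAAGT). Coa6 has no entry in the promoter table used. Their positions are chr11:64079473-64079622 for Cox10, chr9:108567437-108567586 for Ndufaf3, chr1:24005641-24005790 for Sdhaf4, chr2:26916531-26916680 for Surf1 and chr7:90475996-90476145 for Tmem126b, all on the minus strand.
Cox10: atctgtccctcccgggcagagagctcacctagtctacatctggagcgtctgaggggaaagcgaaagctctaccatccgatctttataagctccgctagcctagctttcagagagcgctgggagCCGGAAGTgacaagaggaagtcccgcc
Ndufaf3: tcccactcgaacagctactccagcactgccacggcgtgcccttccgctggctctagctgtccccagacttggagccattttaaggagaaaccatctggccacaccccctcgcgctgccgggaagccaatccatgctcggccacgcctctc
Sdhaf4: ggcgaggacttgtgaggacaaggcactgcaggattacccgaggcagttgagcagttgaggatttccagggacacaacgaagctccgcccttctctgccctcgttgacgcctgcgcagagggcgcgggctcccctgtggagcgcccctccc
Surf1: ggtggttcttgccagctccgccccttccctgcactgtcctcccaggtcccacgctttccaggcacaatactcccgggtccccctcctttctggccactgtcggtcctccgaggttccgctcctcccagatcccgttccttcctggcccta
Tmem126b: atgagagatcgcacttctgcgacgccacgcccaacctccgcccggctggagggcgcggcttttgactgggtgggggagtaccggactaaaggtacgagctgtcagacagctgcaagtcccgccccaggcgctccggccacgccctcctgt

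Of these 5, Cox10 holds the ETS motif, at position -27 from the start site, and all 5 are rich in G and C, from 56.7% in Cox10 to 66.7% in Tmem126b. Over the windows from 250 bases before to 50 after the start site, 38 of the 44 members had an entry. The upstream parts of their 40 windows had a median GC content of 61.6%, against 52.4% for all 32851 windows. The latter include genes that were not tested here, and the GC content for tested genes alone was not computed. Searched on both strands, the ETS motif was in 6 of 38 member genes (15.8%: Timmdc1, Bcs1l, Cox10, Cox15, Cox14 and Cox16), 3.89% of all windows and 8.9% of tested genes. The NRF1 motif GCGCATGCG, nearly its own reverse complement so that 1 site can match on both strands, was in 3 (7.9%: Ndufaf4, Ndufaf5 and Ttc19), 1.75% of all windows and 4.0% of tested genes.

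The YY1 motif AAGATGGCG was in 3 members (Tmem126b, Cox10 and Atpaf2), 1.4% of all windows and 3.5% of tested genes, after the start site in all 3. The C/EBP-ATF element TGATGNAA was in Coa4 alone (2.6%), against 3.97% of all windows and 2.8% of tested genes, and the ERR motif TCAAGGTCA was in none, against 0.42% and 0.3%. Cox10 and Tmem126b, called in opposite directions, both hold the YY1 motif, and both haem genes hold the ETS motif. A match describes letters in a window and is not a measured binding site.

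Of the 44 members, 13 (29.5%) have a protein-coding neighbour on the opposite strand whose start site lies within 1000 bases of their own, against 15.8% of 12386 tested protein-coding genes. The neighbours did not all move with the members. Surf1 was called lower and its partner Surf2 was not called (0.47). Sco1 was not called, and its partner Adprm was called lower, from 17.4 ± 3.10 to 11.5 ± 0.485 CPM (-0.60, adjusted p = 0.0252). Tmem126b was called lower, and its partner Dlg2 was called higher from a very low level (0.101 ± 0.0292 to 1.81 ± 1.42 CPM, adjusted p = 0.00333). Cutc, the partner of Cox15, was at 13.8 ± 0.917 and 10.003 ± 0.878 CPM and was not called (-0.46, adjusted p = 0.0582).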

How the data were processed

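Raw counts per Ensembl gene were deposited by the authors, 1 column per library, with FPKM values per gene beside them. The submitters' processing notes name FastQC, Trimmomatic, STAR, featureCounts, DESeq2 and mm10, without versions or strand setting. Counts were filtered with filterByExpr (minimum count 10), scaled by TMM and tested in edgeR 4.0.16 under R 4.3.3 (glmQLFit, glmQLFTest, two-sided, group only), with Benjamini-Hochberg adjustment over 13706 genes. Each SE was the size of the log2 fold change over the root of its F. The fit was checked on simulated counts. Alternatives were DESeq2 1.42.0, limma-voom (limma 3.58.1), limma on log2(FPKM + 1) and log2(FPKM + 0.1), 3 other scalings, 2 filters, 2 thresholds, each of the 6 libraries left out, and the replicate number as a block. Same-numbered libraries of the 2 groups deviated together (r = 0.245, 0.182 and 0.155 over genes, against -0.141 to -0.026 for other pairs). Deviations were taken from each group's own mean, so positive values for same-numbered pairs make those of other pairs negative on average. The contrast is therefore not independent evidence that the numbers pair the libraries, and no label says what they share. Only the blocked fit treats them as pairs, and the main fit, which gave the calls unless stated otherwise, does not. Exon overlaps came from GENCODE M21, where 42 of 44 members have the table's coordinates, promoters from RefSeq (GRCm38.p6), and transcript similarity from BLAST+ (at least 300 bases and 95% identity). The members and all lists were chosen with earlier results of these data known. Named in full were the called members, the most abundant member of each role, the smallest p in roles with no call, and 10 genes set by name. Proteins were not analysed here.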

Additional observations from a re-analysis of the deposited data

How the results depend on the processing

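The counts of 1 member called higher and 5 lower, and the calls of all named members, were the same with median of ratios and upper-quartile scaling, a CPM filter, DESeq2, limma-voom and both FPKM fits. Library totals gave 10 higher, 1 lower and a median of 0.41. With no filter 3 were lower. An adjusted p of 0.01 gave 0 higher and 1 lower (Coa6), and 0.1 gave 2 higher. Leaving out 1 library gave 0 to 1 higher, 1 to 5 lower and a median from -0.13 to 0.013. The shares of all tested genes called with no filter, at these 2 thresholds or with 1 library left out are not given here. Member counts in those settings can therefore not be set against all genes. The replicate block gave 2 higher, as Lrpprc was added, and changed no other member's call. The sign turned positive for 23 of the 42 members with library totals, for 5 with no filter and for 2 with upper-quartile scaling, and negative for 1 with limma-voom and for 3 in each FPKM fit. Among the 19 members named in full, it turned with library totals for Ndufaf1 (0.15), Acad9 (0.42), Bcs1l (0.094), Uqcc3 (0.11), Sco1 (0.41), Cox14 (0.41), Cox18 (0.41), Coa5 (0.40) and Tmem70 (0.40), and with no filter for Acad9 (0.00098). Leaving out 1 library turned the sign of 4 to 8 of the 42 members, most often (8, all to positive) without Fam210aHKO replicate 3. Among the members named in full these were Acad9 from -0.11 to 0.078 (above 0 without Ctrl replicate 3 or Fam210aHKO replicate 3), Cox14 from -0.17 to 0.086 and Cox18 from -0.21 to 0.11 (both above 0 without Ctrl replicate 1 or Fam210aHKO replicate 3), and Tmem70 from -0.13 to 0.027 (above 0 without Fam210aHKO replicate 3). The cause of these changes was not tested. The common biological coefficient of variation was 0.196.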
